A study of Mus musculus with 21 samples.

Results

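Cytochrome P450 genes encode haem enzymes that insert oxygen into drugs, fatty acids, bile acids, steroids and vitamins. They were taken here as every named probe set whose gene symbol follows the P450 pattern of family number, subfamily letter and gene number, which gave 90 genes of 19505 named genes on the array. Each of the 90 was measured by a single probe set. A further 9 symbols that start with Cyp but break the pattern, such as Cyp51, were not counted among them. The tumours grew from Hepa1-6, an established mouse hepatoma line, injected subcutaneously into immunocompetent female C57BL/6J mice aged 5 to 6 weeks. Treatment began at a tumour volume of 200 mm3, and all 21 tumours, 1 per mouse, were taken 13 days after randomization. The placebo arm (6 mice) received the drug vehicle and a polyclonal IgG, the lenvatinib arm (5 mice) lenvatinib by gavage at 10 mg/kg each day, the anti-PD1 arm (5 mice) the PD-1 antibody clone J43 at 10 mg/kg into the abdomen at 3-day intervals for 5 doses, and the combination arm (5 mice) both agents. Lenvatinib inhibits VEGF and FGF receptors and related kinases, and PD-1 restrains activated T cells. The last lenvatinib dose preceded collection by 2 h and the last antibody dose by 1 day. Total RNA of whole tumour pieces of 30 mg was run on Clariom S arrays, so every signal mixes hepatoma cells with host cells, and fewer cells of a type cannot be told apart from less RNA per cell.

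In liver, P450 enzymes of the Cyp1, Cyp2 and Cyp3 families clear drugs and toxins after induction through the receptors AHR, CAR and PXR. Enzymes of the Cyp7, Cyp8, Cyp27 and Cyp39 families turn cholesterol into bile acids, and those of the Cyp4 family hydroxylate fatty acids and eicosanoids. Microsomal members take electrons from the reductase encoded by Por, and mitochondrial members from ferredoxin. Transcription of many liver members depends on the factors HNF4A and C/EBP, whereas other members are used by fat, airway, skin, adrenal gland or leukocytes.

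The sequences just before the start sites of 5 genes are shown as examples, and each holds at least 1 of the motifs searched. They are the 250 bases upstream of the RefSeq start site (GRCm38.p6), 5' to 3' on the coding strand, with searched motifs in capitals. Cyp2e1 lies at chr7:140763569-140763818 (plus strand), Cyp1a1 at chr9:57697363-57697612 (plus), Cyp2c68 at chr19:39741102-39741351 (minus), Cyp2c70 at chr19:40187287-40187536 (minus) and Cyp8b1 at chr9:121916306-121916555 (minus).
Cyp2e1: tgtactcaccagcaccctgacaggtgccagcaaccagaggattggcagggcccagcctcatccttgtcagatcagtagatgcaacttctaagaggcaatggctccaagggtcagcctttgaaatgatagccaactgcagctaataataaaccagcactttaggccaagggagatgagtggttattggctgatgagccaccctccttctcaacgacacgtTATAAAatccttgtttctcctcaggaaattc
Cyp1a1: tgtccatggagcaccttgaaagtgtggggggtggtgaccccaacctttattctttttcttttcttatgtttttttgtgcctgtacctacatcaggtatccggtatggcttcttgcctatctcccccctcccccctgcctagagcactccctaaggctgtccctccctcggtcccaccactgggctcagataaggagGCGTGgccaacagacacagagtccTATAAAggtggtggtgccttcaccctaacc
Cyp2c68: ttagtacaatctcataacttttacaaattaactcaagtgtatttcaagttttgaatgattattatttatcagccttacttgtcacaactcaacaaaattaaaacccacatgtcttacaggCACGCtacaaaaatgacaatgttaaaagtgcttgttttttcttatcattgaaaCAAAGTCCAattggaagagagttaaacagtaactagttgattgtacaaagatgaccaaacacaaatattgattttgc
Cyp2c70: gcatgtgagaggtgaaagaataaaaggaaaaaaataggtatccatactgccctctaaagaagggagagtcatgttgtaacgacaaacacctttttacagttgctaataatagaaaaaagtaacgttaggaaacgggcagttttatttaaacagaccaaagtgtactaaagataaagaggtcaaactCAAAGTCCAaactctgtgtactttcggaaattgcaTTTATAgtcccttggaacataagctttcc
Cyp8b1: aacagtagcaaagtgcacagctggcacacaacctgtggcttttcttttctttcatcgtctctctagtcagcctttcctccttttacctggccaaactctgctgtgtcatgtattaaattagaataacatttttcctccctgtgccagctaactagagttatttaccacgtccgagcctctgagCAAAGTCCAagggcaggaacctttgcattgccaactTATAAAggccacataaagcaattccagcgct
Cyp2e1, Cyp1a1 and Cyp8b1 carried a TATA box (TATAAA) that began 31, 30 and 31 bases before the start, and Cyp2c70 carried one on the opposite strand 29 bases before it. Cyp1a1 also held the dioxin response core GCGTG, read by AHR with ARNT, 54 bases before the start, and Cyp2c68 held it on the opposite strand 130 bases before. In Cyp2e1 the TATA box was the only match. Cyp2c68, Cyp2c70 and Cyp8b1 held the HNF4 site CAAAGTCCA, which began 77, 64 and 67 bases before the start.

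Promoters were listed for 69 of the 90 P450 genes and for 27025 genes in all, and both strands were searched in the same 250 bases. The HNF4 site was found in 9 of the 69 (13%) and in 0.377% of all promoters. The 9 were Cyp2c40, Cyp2c65, Cyp2c67, Cyp2c68, Cyp2c69, Cyp2c70, Cyp3a11, Cyp3a16 and Cyp8b1, several of which are close paralogs with related promoters. TATAAA stood in 34.8% of the P450 promoters against 13.0% of all. GCGTG was held by 20.3% against 28.3%, and GAGGAAGT, a site of the myeloid factor PU.1, by 7.25% against 2.42%. The latter share is 5 genes of the Cyp2a and Cyp4f groups: Cyp2a12, Cyp2a4, Cyp2a5, Cyp4f16 and Cyp4f37. The palindromic C/EBP site TTGCGCAA was found in 0 of 69 promoters and in 0.17% of all. These matches describe letters in a window, and whether a factor bound there was not tested.

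A gene was counted as above the array's background when its mean log2 signal in at least 1 arm exceeded 4.10, the median of the 5222 negative-control rows. By this bar 46 of the 90 P450 genes (51.1%) were above background, against 76.7% of the 22206 probe sets tested and 56.3% of the negative-control rows themselves. Above 7.35, the 95th percentile of the negative controls, lay Cyp2e1, Cyp2s1, Cyp4f18 and Cyp2d13, which are 4.44% of the P450 genes, against 23.2% of all probe sets. Since so many control rows also pass the median bar, passing it does not by itself separate a gene from background. Of the 46, 34 passed it in all 4 arms and 12 in some. The median of the mean signals was 4.02 over the 90 genes and 5.46 over all tested probe sets. Signals of different probe sets are not amounts that can be set against each other, so levels below are compared only within a gene.

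Several P450 genes known from liver were not above the bar, whereas others, such as Cyp2e1, Cyp27a1 and Cyp2f2, were. Cyp7a1, the rate-limiting enzyme of bile acid synthesis, had arm means between 3.84 and 4.08, and Cyp8b1, the sterol hydroxylase that makes cholic acid, between 3.09 and 3.18. Cyp3a11, the main PXR-induced drug enzyme, lay between 3.32 and 3.62, Cyp2b10, the standard CAR target, between 2.80 and 3.06, and Cyp1a2, the hepatic AHR target, between 3.01 and 3.53. Of 23 listed hepatocyte-lineage genes such as albumin, 21 were above the bar (against 76.7% of all tested probe sets), Serpinc1 and Itih3 being the exceptions. At the 95th percentile of the negative controls 11 of the 23 passed (against 23.2%). Of the 9 P450 genes with the HNF4 site, only Cyp2c68 and Cyp2c70 were above the median bar (against 76.7% of all tested probe sets).

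The counts by role that follow stand beside 76.7% of all tested probe sets and 56.3% of the negative-control rows above the bar. By role, the epoxygenases of the Cyp2c and Cyp2j groups, which turn arachidonic acid into epoxides, had 5 of 21 genes above the bar. The CAR and PXR targets of the Cyp2b and Cyp3a groups had 3 of 12. Fatty acid and eicosanoid hydroxylases had 11 of 17 above it, the other drug and toxin enzymes of the Cyp2 family 12 of 18, and bile acid and cholesterol enzymes 4 of 6 (Cyp27a1, Cyp39a1, Cyp7b1 and Cyp46a1). Retinoic acid hydroxylases had 2 of 3, vitamin D enzymes 2 of 3, AHR targets 2 of 3 and steroid hormone enzymes 3 of 5. Cyp20a1 and Cyp2ab1, which belong to none of these roles, were both above the bar. Just inside it were Cyp26a1, Cyp2c66 and Cyp21a1, with highest arm means of 4.11, 4.12 and 4.16. Just outside were Cyp4f14, Cyp7a1 and Cyp24a1, at 4.09, 4.08 and 4.08.

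**Figure D1:**
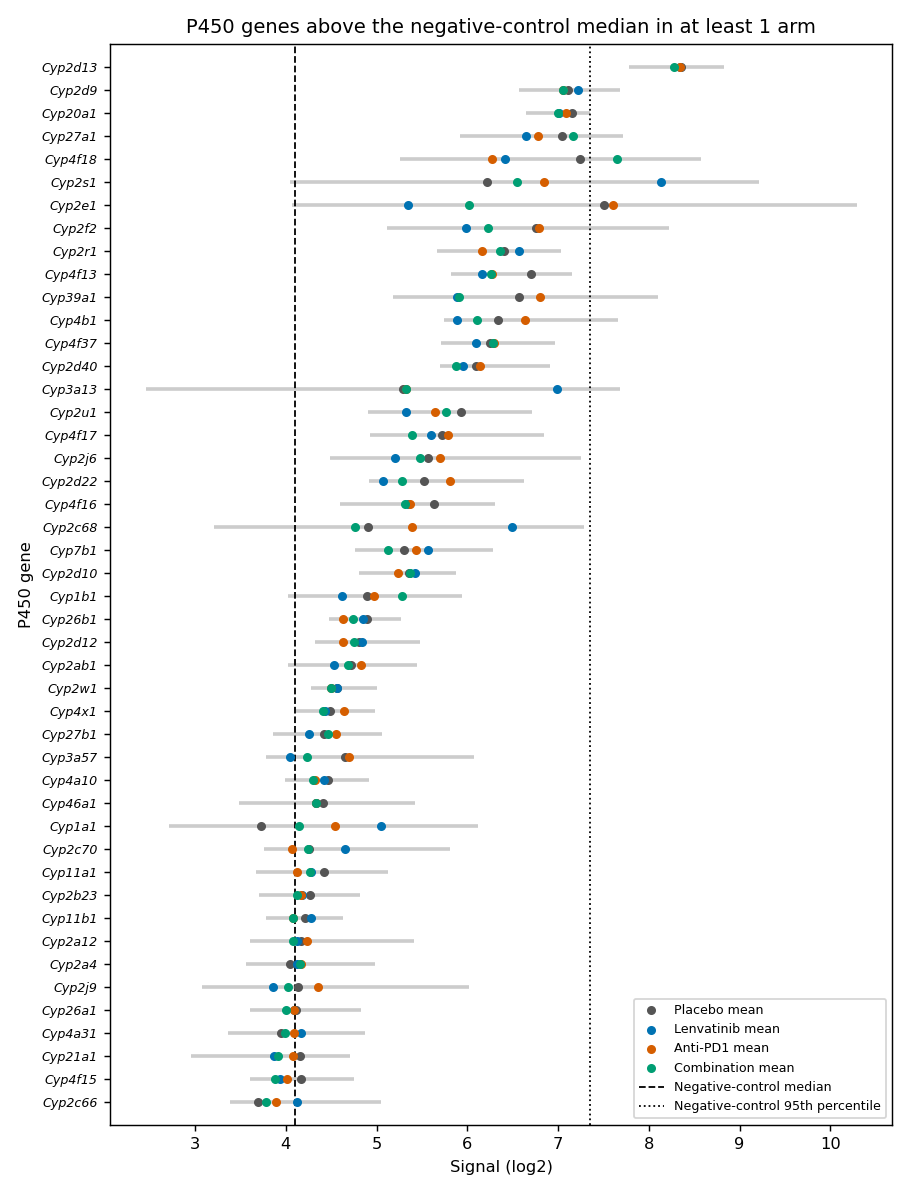
Mean log2 signal of each arm (points) and the range over the 21 tumours (grey bars) for the 46 P450 genes above the negative-control median in at least 1 arm, with dashed and dotted lines at the negative-control median (4.10) and 95th percentile (7.35). The arm means nearly coincide for Cyp2d13, Cyp2d9 and Cyp20a1, while Cyp2e1, Cyp3a13 and Cyp2s1 span more than 5 log2 units between tumours.

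Genes with steady signals stood beside genes that ranged widely. Cyp20a1, an orphan member, ranged from 6.64 to 7.35 over all tumours, with a mean of 7.15 ± 0.19 (SD, n = 6) in placebo and 7.09 ± 0.09 (SD, n = 5) in anti-PD1. Cyp2d13, of the debrisoquine hydroxylase group, ranged from 7.79 to 8.83 over all tumours, and the related Cyp2d9 from 6.57 to 7.69. The largest SDs over the 21 tumours were those of Cyp2e1 (1.96), Cyp2s1 (1.67), Cyp3a13 (1.66), Cyp2c68 (1.31) and Cyp4f18 (0.97). The SDs of Cyp2e1, Cyp2s1 and Cyp3a13 all lay above the 99th percentile of tested probe sets, although the median SD of the 46 genes (0.40) was close to that of all probe sets above the bar (0.44).

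The genes with the largest SDs varied along with tissue marker genes in the same tumour pieces. Cyp2s1, Cyp3a13 and Cyp2c68 went with hepatocyte-lineage markers, Cyp2e1 with adipocyte markers and Cyp4f18 with macrophage markers. Each tissue was scored as the mean over a list of its marker genes after centring, and each score was correlated over the 21 tumours with the 46 P450 genes above the bar, in 5 scores and 230 relations. Pearson's r was tested with 100000 permutations and Benjamini-Hochberg adjustment over all tested probe sets within a score. Under this test 19 of the 46 genes (41.3%) were related to at least 1 score, against 35.7% of all probe sets above the bar and 29% of all tested, a share near the background. The hepatocyte-lineage and adipocyte scores opposed each other (r = -0.76), as did the hepatocyte-lineage and fibroblast scores (r = -0.77), so that relations with them are not separate. Permutation p-values of 1e-05 are the smallest that 100000 permutations can give.

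With the hepatocyte-lineage score, 6 P450 genes were positively related (13% of the 46, against 12.9% of all probe sets above the bar and 10.3% of all tested) and 6 negatively (13%, against 11.5% and 9.26%). Both shares were near the background. The positive relations were those of Cyp2c68, an epoxygenase-family gene (r = 0.93), Cyp3a13, the Cyp3a gene of liver and gut (r = 0.90), Cyp2s1, an AHR-responsive enzyme of epithelia (r = 0.89), Cyp1a1, the main AHR target (r = 0.74), Cyp7b1, an oxysterol hydroxylase (r = 0.68), and Cyp11a1, the cholesterol side-chain cleavage enzyme (r = 0.58). Spearman's rho was 0.85, 0.81, 0.84, 0.77, 0.61 and 0.61 for these genes, and the adjusted permutation p of r was 0.00032 for the leading 3, 0.00169 for Cyp1a1, 0.00829 for Cyp7b1 and 0.0339 for Cyp11a1. Their permutation p of rho ran from 1e-05 to 0.0039. The negative relations were those of Cyp2u1 (r = -0.81), Cyp2j6 (r = -0.80), Cyp3a57 and Cyp2e1 (r = -0.72 each), Cyp2f2 (r = -0.71) and Cyp4b1 (r = -0.69), with adjusted permutation p-values from 0.0005 to 0.00477. Without the 2 tumours farthest from the median score, r was 0.90 for Cyp2c68, 0.87 for Cyp3a13 and 0.85 for Cyp2s1, and for Cyp11a1 it was 0.55 with an adjusted permutation p of 0.0758, no longer past the threshold.

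Values in single tumours show the pattern. Cyp3a13 ranged in placebo from 3.23 to 7.68 with a median of 5.16. Its lenvatinib tumours read 6.59, 6.72, 7.43, 6.97 and 7.26, its anti-PD1 tumours 3.84, 2.46, 7.26, 5.98 and 7.09, and its combination tumours 6.10, 4.92, 6.81, 4.74 and 4.06. All 5 lenvatinib tumours were high, whereas the other arms each held high and low tumours, and the arms overlapped. Cyp2s1 ran from 4.05 to 8.59 in placebo, with a median of 5.89. It read 7.19, 7.39, 8.70, 9.07 and 8.30 under lenvatinib, 5.24, 4.37, 8.43, 6.94 and 9.22 under anti-PD1, and 7.65, 6.37, 7.26, 6.50 and 4.96 under the combination. The anti-PD1 tumours of mice 1 and 2, low for Cyp3a13, were low for Cyp2s1 as well. Cyp2c68 ranged in placebo from 3.30 to 6.57 around a median of 4.97. Under lenvatinib it read 5.95, 6.41, 6.95, 6.40 and 6.73, under anti-PD1 4.16, 3.21, 6.83, 5.50 and 7.28, and under the combination 5.30, 4.67, 5.83, 4.35 and 3.64. The hepatocyte-lineage score itself lay between 0.33 and 0.99 in lenvatinib tumours, between -1.15 and 0.73 in placebo, between -1.22 and 0.83 in anti-PD1 and between -1.03 and 0.84 in combination.

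With the adipocyte score, 10 P450 genes were positively related (21.7% of the 46, against 9.22% of all probe sets above the bar and 7.6% of all tested) and 6 negatively (13%, against 11.6% and 9.12%). The positive group was led by Cyp2e1, the ethanol-oxidizing enzyme (r = 0.96), Cyp2f2, the naphthalene-oxidizing enzyme of airway and liver (r = 0.87), Cyp3a57 (r = 0.81), Cyp4b1, a hydroxylase of lung and other extrahepatic tissue (r = 0.80), and the epoxygenase Cyp2j6 (r = 0.77). Spearman's rho was 0.94, 0.91, 0.81, 0.79 and 0.74, and the adjusted permutation p of r was 0.00062 for the leading 4 and 0.00135 for Cyp2j6. The permutation p of rho lay between 1e-05 and 0.00026. Cyp39a1, an oxysterol hydroxylase of bile acid synthesis (r = 0.70), Cyp2u1, a fatty acid hydroxylase (r = 0.67), Cyp2d22 (r = 0.67), Cyp4f15 (r = 0.63) and Cyp2j9 (r = 0.62) completed it. Without the 2 tumours farthest from the median score, r of Cyp2e1 was 0.96 and that of Cyp2f2 0.90, while Cyp2d22, Cyp4f15 and Cyp2j9 had adjusted permutation p-values of 0.0604, 0.0525 and 0.0547. The negative group held Cyp2s1, Cyp3a13, Cyp2c68, Cyp7b1, Cyp2r1 and Cyp1a1, of which all but Cyp2r1, which carries out the liver step of vitamin D activation, were positively related to the hepatocyte-lineage score.

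Cyp2e1 covered the widest range of the P450 genes. Placebo tumours ran from 4.73 to 9.77 with a median of 7.74. Lenvatinib tumours read 6.04, 4.63, 4.89, 7.12 and 4.07, anti-PD1 tumours 7.93, 10.29, 5.79, 9.33 and 4.68, and combination tumours 4.09, 6.80, 7.27, 6.37 and 5.54. The highest value, in anti-PD1 mouse 2, fell in the tumour with the highest adipocyte score (2.78), and the arms overlapped. Cyp2f2 ran from 5.71 to 7.52 in placebo around a median of 6.93. It read 6.05, 6.05, 5.70, 6.39 and 5.72 under lenvatinib, 6.57, 8.22, 6.10, 7.04 and 6.03 under anti-PD1, and 5.11, 6.39, 6.74, 6.75 and 6.16 under the combination. Anti-PD1 mouse 2 was again the highest.

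**Figure D2:**
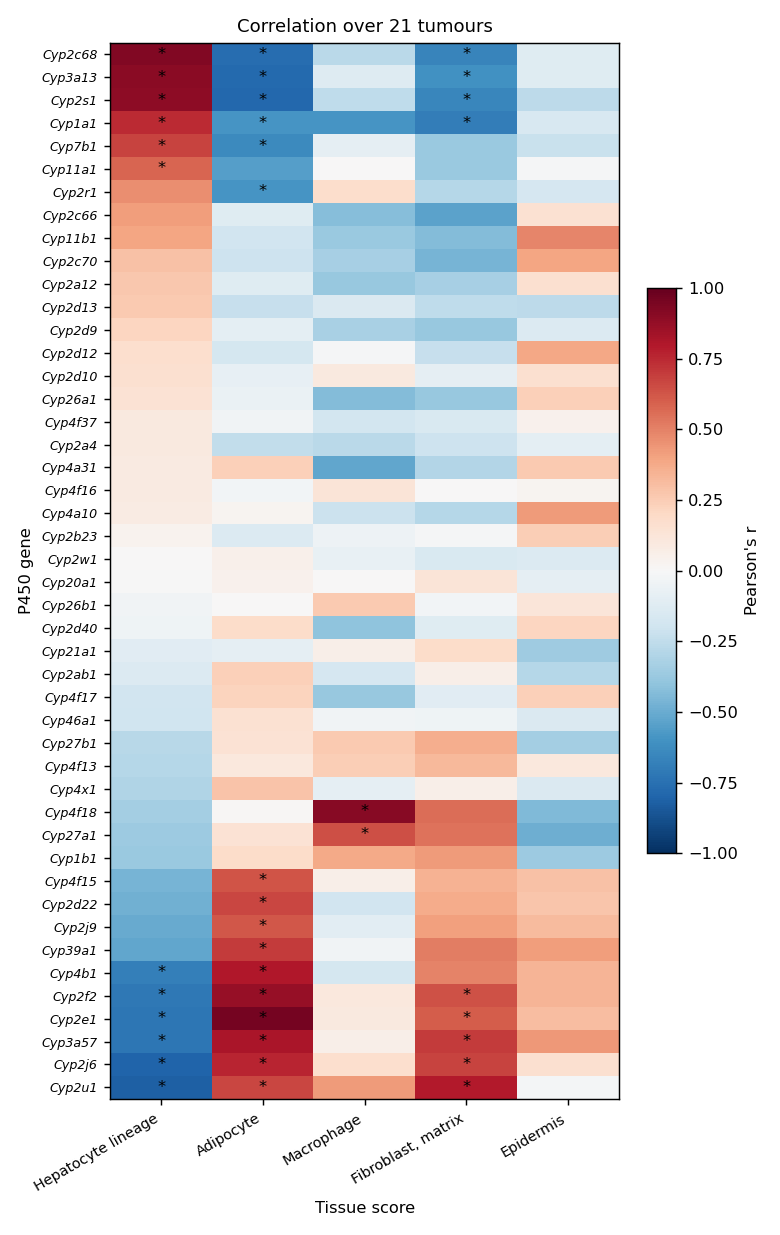
Pearson's r between the log2 signal of each of the 46 P450 genes above the bar (rows) and 5 tissue scores (columns) over 21 tumours, from blue (-1) to red (1), with an asterisk at an adjusted permutation p under 0.05. The genes at the top and bottom have opposite signs for the hepatocyte-lineage and adipocyte scores, and Cyp4f18 and Cyp27a1 carry the only asterisks for macrophages.

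With the macrophage score, Cyp4f18 and Cyp27a1 were related, both positively (4.35% of the 46, against 6.51% of all probe sets above the bar and 5.04% of all tested), and 0 negatively (against 0.875% and 0.725%). Cyp4f18, a leukocyte enzyme that hydroxylates leukotriene B4, had r = 0.91 and rho = 0.91, with an adjusted permutation p of 0.0007. Cyp27a1, the mitochondrial sterol hydroxylase present in macrophages as well as liver, had r = 0.64 and rho = 0.65, with an adjusted permutation p of 0.0336. After each arm's mean was subtracted, r was 0.87 for Cyp4f18 and 0.58 for Cyp27a1, whose adjusted permutation p was then 0.223. A neutrophil score, added after the Cyp4f18 values were seen, gave r = 0.77 for Cyp4f18 with an adjusted permutation p of 0.00848, which was 0.233 without the 2 tumours farthest from its median. It was the only 1 of the 46 related to that score (2.17%, against 2.19% of probe sets above the bar and 1.68% of all tested), and 0 were negatively related (against 0.288% and 0.23%). The macrophage and neutrophil scores were themselves related (r = 0.76). With the fibroblast score, Cyp2u1, Cyp3a57, Cyp2j6, Cyp2f2 and Cyp2e1 were positively related (10.9%, against 10.5% of all probe sets above the bar and 8.26% of all tested) and Cyp1a1, Cyp2c68, Cyp2s1 and Cyp3a13 negatively (8.7%, against 8.7% and 7.16%). With the epidermis score 0 of 46 were related after adjustment, as were 0 of all tested probe sets, and 4 (Cyp27a1, Cyp4f18, Cyp11b1 and Cyp3a57) had an unadjusted permutation p under 0.05 (8.7%, against 8.4% of all probe sets above the bar and 8.2% of all tested). Skeletal muscle scores fell into separate clusters, so no correlation with them is given.

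**Figure D3:**
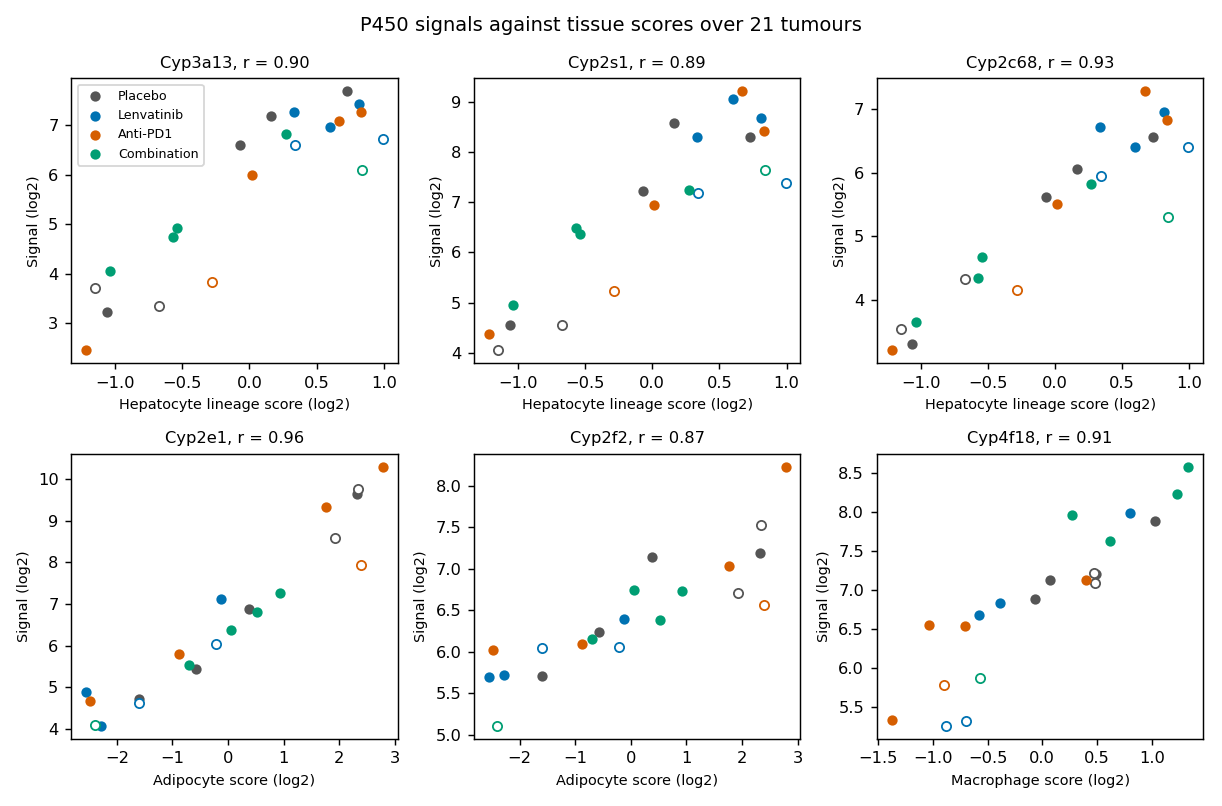
Log2 signal of 6 P450 genes against a tissue score in each of the 21 tumours, coloured by arm, with open circles for the 6 arrays that have bright hybridization controls. Cyp3a13, Cyp2s1 and Cyp2c68 increase with the hepatocyte-lineage score, Cyp2e1 and Cyp2f2 with the adipocyte score and Cyp4f18 with the macrophage score, and each panel shows the tumours of all 4 arms.

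The arrays were not uniform. In 6 of them the hybridization controls read 11.2 to 11.6, against 10.1 to 10.7 in the other 15, and the interquartile range of signals was 2.41 to 2.82 against 3.00 to 3.25. These were the arrays of combination mouse 1, anti-PD1 mouse 1, mice 1 and 2 of the lenvatinib arm and mice 4 and 6 of the placebo arm. On these arrays the mean was lower by 1.24 log2 for Cyp2s1, 1.15 for Cyp4f18 and 0.93 for Cyp3a13, and higher by 0.71 for Cyp2c70 (6.01 against 7.25, 6.09 against 7.24, 5.05 against 5.98 and 4.81 against 4.10). Among genes below the bar, Cyp2c69, Cyp2g1 and Cyp2c67 read higher there by 0.52, 0.49 and 0.40. Arm differences were therefore also computed without these arrays. Within the other 15 arrays r with the hepatocyte-lineage score was 0.98 for Cyp2c68, 0.96 for Cyp3a13 and 0.95 for Cyp2s1, r with the adipocyte score was 0.96 for Cyp2e1, and r with the macrophage score was 0.94 for Cyp4f18.

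The 4 arms were compared in a single limma fit over all 22206 tested probe sets, with 8 tests: the 6 pairs of arms, the interaction and a moderated F test over the arms. No P450 gene passed a Benjamini-Hochberg adjusted p of 0.05 in any of the 8 tests, and neither did any other probe set (background 0%). The smallest adjusted p of a P450 gene in limma was 0.257, for Cyp4f18 in the interaction. At an unadjusted p under 0.05 the F test held 6 of the 90 P450 genes (6.67%, against 5.69% of all probe sets): Cyp2c69, Cyp2c67, Cyp39a1, Cyp4f18, Cyp2d22 and Cyp2t4. Of these, Cyp2c69, Cyp2c67 and Cyp2t4 were below the bar in every arm. All differences that follow are log2 differences ± SE from this fit, none passed the adjusted threshold, and the comparisons share arms, so they are not independent of each other. The 95% intervals quoted are not adjusted for the number of genes.

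**Figure D4:**
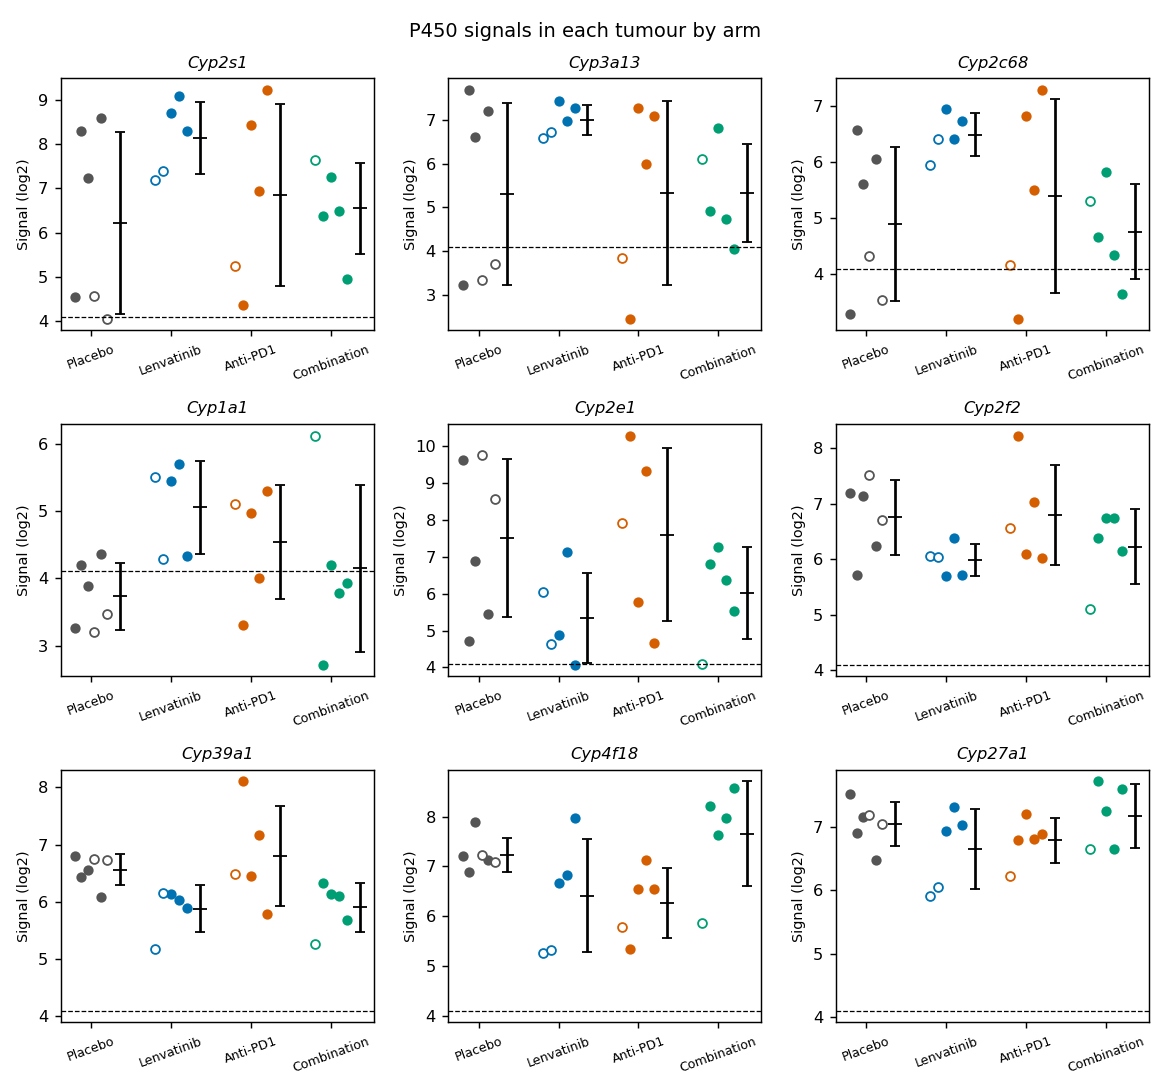
Log2 signals of 9 P450 genes in each tumour by arm (points), with the arm mean and SD beside them, open circles for the 6 arrays with bright hybridization controls, and a dashed line at the negative-control median. Lenvatinib tumours are uniformly high for Cyp3a13, Cyp2s1 and Cyp2c68, and combination mouse 1 is the highest of its arm for Cyp1a1 and the lowest for Cyp4f18.

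Lenvatinib compared with placebo asks about the kinase inhibitor alone. Differences of the 46 genes above the bar ran from -2.16 for Cyp2e1 to 1.92 for Cyp2s1, and none passed the adjusted test. Of the 46, 15 had differences above 0 and 31 below, against 46.9% above 0 for all such probe sets, with a median of -0.10 against -0.02. The bar fixed some of these signs, so no shift of the genes is read from them. At an unadjusted p under 0.05 there were 9 P450 genes (10%, against 6.97%), 5 of them higher (5.56%, against 2.92%) and 4 lower (4.44%, against 4.05%). The higher ones above the bar were Cyp1a1 (1.32 ± 0.47), Cyp2c68 (1.59 ± 0.67) and Cyp2s1 (1.92 ± 0.90), and Cyp3a13 differed by 1.70 ± 0.89. The lower ones were Cyp2e1 (-2.16 ± 1.01), Cyp39a1 (-0.68 ± 0.31), Cyp2u1 (-0.61 ± 0.26) and Cyp4f13, a fatty acid hydroxylase (-0.55 ± 0.20), and Cyp2f2 differed by -0.77 ± 0.38. The adjusted limma p was 0.693 for each of the genes named here. The mean hepatocyte-lineage score was 0.61 in lenvatinib against -0.34 in placebo and the adipocyte score -1.36 against 0.80. The fibroblast score was -0.40 against 0.28 and the macrophage score -0.35 against 0.41. Of the tissue markers, 8 of the 23 hepatocyte-lineage genes were higher at an unadjusted p under 0.05 (against 2.92% of all probe sets). Lower at this limit were 5 of the 10 adipocyte, 6 of the 16 fibroblast and 3 of the 12 macrophage genes (against 4.05%). The part of this makeup in the differences was not tested. Without the arrays with bright controls 3 P450 genes instead of 9 had an unadjusted p under 0.05 (against 4.95% of all probe sets), and leaving out 1 mouse at a time gave 3 (placebo mouse 1) to 13 (anti-PD1 mouse 2), against 3.71% and 8.15% of all.

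Cyp1a1 had the smallest unadjusted p of that comparison among P450 genes above the bar. Placebo tumours ran from 3.20 to 4.37 with a median of 3.68, and 2 of the 6 exceeded the negative-control median. Lenvatinib tumours read 5.51, 4.29, 5.45, 5.69 and 4.33, all above that median. Anti-PD1 tumours read 5.11, 3.30, 4.98, 4.01 and 5.30, and combination tumours 6.12, 2.71, 4.20, 3.78 and 3.92. Lenvatinib and placebo overlapped narrowly, since 4.29 and 4.33 lie under the highest placebo value. The mean was 3.73 ± 0.49 (SD, n = 6) in placebo and 5.05 ± 0.69 (SD, n = 5) in lenvatinib, with a 95% interval of 0.34 to 2.31 for the log2 difference. The placebo mean lay below the bar, so no fold is given, and Cyp1a1 passed the bar through the other 3 arms. Of the other AHR pathway genes, Ahr differed by 0.96 ± 0.37 from placebo, whereas Tiparp, an AHR target, differed by 0.10 ± 0.24 and Ahrr, the AHR repressor, by -0.16 ± 0.25. Cyp1b1, the AHR target of mesenchymal cells, differed by -0.28 ± 0.27.

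Cyp39a1 had its lower arm means in both arms with lenvatinib (5.88 and 5.90) and its higher ones in placebo (6.57) and anti-PD1 (6.80). It ran from 6.08 to 6.81 in placebo around a median of 6.65. It read 5.18, 6.16, 6.15, 6.04 and 5.90 under lenvatinib, 6.49, 8.10, 6.45, 7.16 and 5.79 under anti-PD1, and 5.27, 6.33, 6.14, 6.10 and 5.69 under the combination. Both arms with lenvatinib overlapped the lower values of the other arms. The combination differed from placebo by -0.66 ± 0.31 and from anti-PD1 by -0.90 ± 0.32, with adjusted limma p-values of 1.0 and 0.359. Cyp4f13 ran from 6.09 to 7.16 in placebo, with a median of 6.80. It read 5.82, 6.27, 6.10, 5.97 and 6.65 under lenvatinib, 5.91, 6.47, 6.36, 6.29 and 6.34 under anti-PD1, and 6.44, 5.87, 6.15, 6.31 and 6.56 under the combination. The 3 treated arms lay lower on average, and each overlapped the placebo values.

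Anti-PD1 compared with placebo shows the antibody alone. Only 2 of 90 P450 genes had an unadjusted p under 0.05 (2.22%, against 4.07%), with 0 higher (against 1.38%) and 2 lower (against 2.68%): Cyp4f13 (-0.43 ± 0.20) and Cyp2g1, a gene of the olfactory mucosa that was below the bar. Cyp4f18 differed by -0.97 ± 0.47 and Cyp1a1 by 0.81 ± 0.47. Cyp26b1, which degrades retinoic acid, differed by -0.26 ± 0.14, and Cyp2d22 by 0.28 ± 0.23. The Cyp2d22 difference was 0.08 without anti-PD1 mouse 2 and 0.48 without mouse 5. Of the 46 genes above the bar, 24 had differences above 0 and 22 below, against 49.8% above 0 for all such probe sets. The adjusted limma p of each of these genes was 1.0.

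Combination compared with placebo shows both agents together. Unadjusted p-values under 0.05 were again seen for 2 of 90 P450 genes (2.22%, against 2.31%), with 0 higher (against 1.01%) and 2 lower (against 1.3%), Cyp39a1 and Cyp4f13 (-0.44 ± 0.20). Cyp2e1 differed by -1.50 ± 1.01, with a 95% interval of -3.60 to 0.61. Cyp1b1, Cyp4f18 and Cyp1a1 differed by 0.39 ± 0.27, 0.42 ± 0.47 and 0.42 ± 0.47. The Cyp1a1 difference rested on combination mouse 1, without which it was -0.07. That of Cyp4f18 ran from 0.19 without combination mouse 5 to 0.86 without mouse 1, and that of Cyp1b1 was 0.22 without combination mouse 4. No P450 gene separated a treated arm wholly from placebo: 0 were wholly higher or lower under lenvatinib (against 0.288% and 0.302% of all probe sets), under anti-PD1 (against 0.0901% and 0.374%) or under the combination (against 0.0766% and 0.189%). Combination minus placebo differences were below 0 for 34 of the 46 genes above the bar and above 0 for 12, against 50.9% above 0 for all such probe sets, with a median of -0.10 against 0.0049. The bar fixed some of these signs, so no shift of the genes is read from them.

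Combination compared with lenvatinib asks what the antibody added to the drug. There were 5 of 90 P450 genes with an unadjusted p under 0.05 (5.56%, against 6.4%). Higher were Cyp4f18 (1.24 ± 0.50) and Cyp1b1 (0.67 ± 0.28), 2.22% of the P450 genes against 3.87% of all. Lower were Cyp2c68 (-1.73 ± 0.70) and, below the bar, Cyp2c67 and Cyp2c69, 3.33% against 2.53%. Cyp1a1, Cyp3a13 and Cyp2s1 differed by -0.91 ± 0.49, -1.67 ± 0.93 and -1.59 ± 0.94, and the Cyp1a1 difference ran from -1.40 without combination mouse 1 to -0.55 without mouse 2. Of the 46 genes above the bar, 19 had differences above 0 and 27 below, against 51.8% above 0 for all such probe sets. The adjusted limma p of those above the bar lay between 0.780 and 0.809. The combination and lenvatinib tumours did not overlap for Cyp2c68 and Cyp2c67, both lower in the combination (2.22% of 90, against 0.482% of all probe sets), and 0 were wholly higher (against 0.405%). With array weights, Cyp1a1 passed at -1.52 with an adjusted limma p of 0.0387, the only 1 of 90 P450 genes to do so (1.11%, against 3.18% of all probe sets under that setting). The mean hepatocyte-lineage score was -0.21 in combination against 0.61 in lenvatinib. At an unadjusted p under 0.05, 6 of its 23 genes were lower (against 2.53% of all probe sets). Their part in these differences was not tested.

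Combination compared with anti-PD1 asks what the drug added to the antibody. The unadjusted p was under 0.05 for 3 of 90 P450 genes (3.33%, against 7.64%). Cyp4f18 was higher in combination by 1.38 ± 0.50, 1.11% of the P450 genes against 4.85%, and Cyp39a1 and Cyp2d22 (-0.52 ± 0.24) were lower, 2.22% against 2.79%. Cyp4b1 differed by -0.53 ± 0.27, Cyp27a1 by 0.39 ± 0.29 and Cyp2e1 by -1.59 ± 1.06. Without anti-PD1 mouse 2 the differences were -0.57 for Cyp39a1, -0.31 for Cyp2d22, -0.27 for Cyp4b1 and -0.92 for Cyp2e1, and without anti-PD1 mouse 1 that of Cyp27a1 was 0.25. Of the 46 genes above the bar, 13 had differences above 0 and 33 below, against 48.9% above 0 for all such probe sets. Some of these signs were fixed by the bar. Cyp2j12, below the bar, had no overlap between these arms and was lower in combination (1.11% of 90, against 0.401% of all probe sets), and 0 were wholly higher (against 0.527%).

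Cyp4f18 had the largest positive difference of that comparison among the 46 P450 genes above the bar. Placebo tumours ran from 6.89 to 7.88 around a median of 7.17. Lenvatinib tumours read 5.26, 5.32, 6.67, 6.84 and 7.98, anti-PD1 tumours 5.79, 5.33, 6.54, 7.13 and 6.55, and combination tumours 5.87, 8.22, 7.63, 7.96 and 8.57. In combination, 4 of 5 tumours exceeded every anti-PD1 tumour, and mouse 1, an array with bright controls, did not. The difference of 1.38 (2.61-fold, 95% interval 0.35 to 2.42) had an adjusted limma p of 0.358. It was 1.83 with an adjusted p of 0.0443 without combination mouse 1, 1.71 with 0.0475 without the 6 arrays with bright controls, and 1.40 with 0.0481 under array weights. It was the only 1 of 90 P450 genes to pass in each of these settings (1.11%), where 1.52%, 1.05% and 2.27% of all probe sets passed. The macrophage score averaged 0.58 in combination, -0.72 in anti-PD1, -0.35 in lenvatinib and 0.41 in placebo. All 12 measured macrophage genes were above the bar, as were 76.7% of all tested probe sets. Of the 12, 10 were higher in combination than in anti-PD1 at an unadjusted p under 0.05 (against 4.85% of all probe sets). After adjustment 0 passed. The part of the macrophage content in the Cyp4f18 difference was not tested. Tbxas1, the thromboxane synthase, a P450 outside the symbol pattern, differed by 1.51 in the same comparison.

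Cyp27a1 varied less between the arms. It ran from 6.47 to 7.52 in placebo with a median of 7.10. It read 5.91, 6.04, 6.94, 7.31 and 7.03 under lenvatinib, 6.23, 6.79, 7.20, 6.81 and 6.88 under anti-PD1, and 6.65, 7.71, 7.24, 6.64 and 7.60 under the combination. All 4 arms overlapped, and the lowest values of lenvatinib and anti-PD1 came from arrays with bright controls.

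Lenvatinib compared with anti-PD1 sets the single agents against each other. Here 8 of 90 P450 genes had an unadjusted p under 0.05 (8.89%, against 4.59%). Higher under lenvatinib were Cyp2g1, Cyp2c67 and Cyp2c69 (3.33%, against 1.55%), all of them below the bar. These 3 also had no overlap between the arms (3.33% of 90, against 0.203% of all probe sets), and 0 genes were wholly lower (against 0.239%). On the arrays with bright controls Cyp2c69, Cyp2g1 and Cyp2c67 read higher, by 0.52, 0.49 and 0.40. Lenvatinib mice 1 and 2 and anti-PD1 mouse 1 were on such arrays. The part of the array difference in these values was not tested. Lower were Cyp2d22 (-0.73 ± 0.24), Cyp39a1 (-0.92 ± 0.32), Cyp4b1 (-0.76 ± 0.27), Cyp2e1 (-2.26 ± 1.06) and, below the bar, Cyp2t4 (5.56%, against 3.04%). Cyp2f2 differed by -0.81 ± 0.40, Cyp3a13 by 1.67 ± 0.93 and Cyp2c70 by 0.58 ± 0.30. Without anti-PD1 mouse 2 the differences were -0.59 for Cyp39a1, -0.50 for Cyp4b1, -0.45 for Cyp2f2 and 0.95 for Cyp3a13, and without lenvatinib mouse 1 that of Cyp2c70 was 0.29. Cyp2c70 read 5.81 and 5.28 in lenvatinib mice 1 and 2, both on arrays with bright controls. The other lenvatinib tumours read 4.13, 3.78 and 4.23. Its anti-PD1 tumours read 4.46, 4.16, 4.00, 3.94 and 3.76, with a mean below the bar. Of the 46 genes above the bar, 21 had differences above 0 and 25 below, against 49.8% above 0 for all such probe sets. Each of those above the bar had an adjusted limma p of 0.955. Cyp2d22 ran in placebo from 5.12 to 6.32 with a median of 5.40. It read 5.17, 4.97, 5.28, 5.01 and 4.92 under lenvatinib, 5.72, 6.62, 5.66, 6.01 and 5.00 under anti-PD1, and 5.35, 5.30, 5.31, 5.30 and 5.17 under the combination. Only anti-PD1 mouse 5 fell into the range of the lenvatinib tumours.

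The interaction asks whether the effects of the agents add up on the log2 scale. Departures at an unadjusted p under 0.05 were found for 4 of 90 P450 genes (4.44%, against 9.02%), 1 upward (1.11%, against 5.7%) and 3 downward (3.33%, against 3.31%). Cyp4f18 departed upward by 2.21 ± 0.69 (95% interval 0.78 to 3.63), while Cyp1a1 departed by -1.72 ± 0.68 and Cyp2c68 by -2.23 ± 0.97. Below the bar, Cyp2c67 departed by -0.77. The adjusted limma p was 0.257 for Cyp4f18, 0.418 for Cyp1a1 and 0.484 for Cyp2c68. Without combination mouse 1, Cyp4f18 departed by 2.65 with an adjusted p of 0.0345, and array weights took all 4 of these genes past the threshold, Cyp1a1 at -2.37 and Cyp2c68 at -2.89. Of all probe sets, 1.44% passed without combination mouse 1 (1.11% of the P450 genes) and 7.62% with array weights (4.44%).

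**Figure D5:**
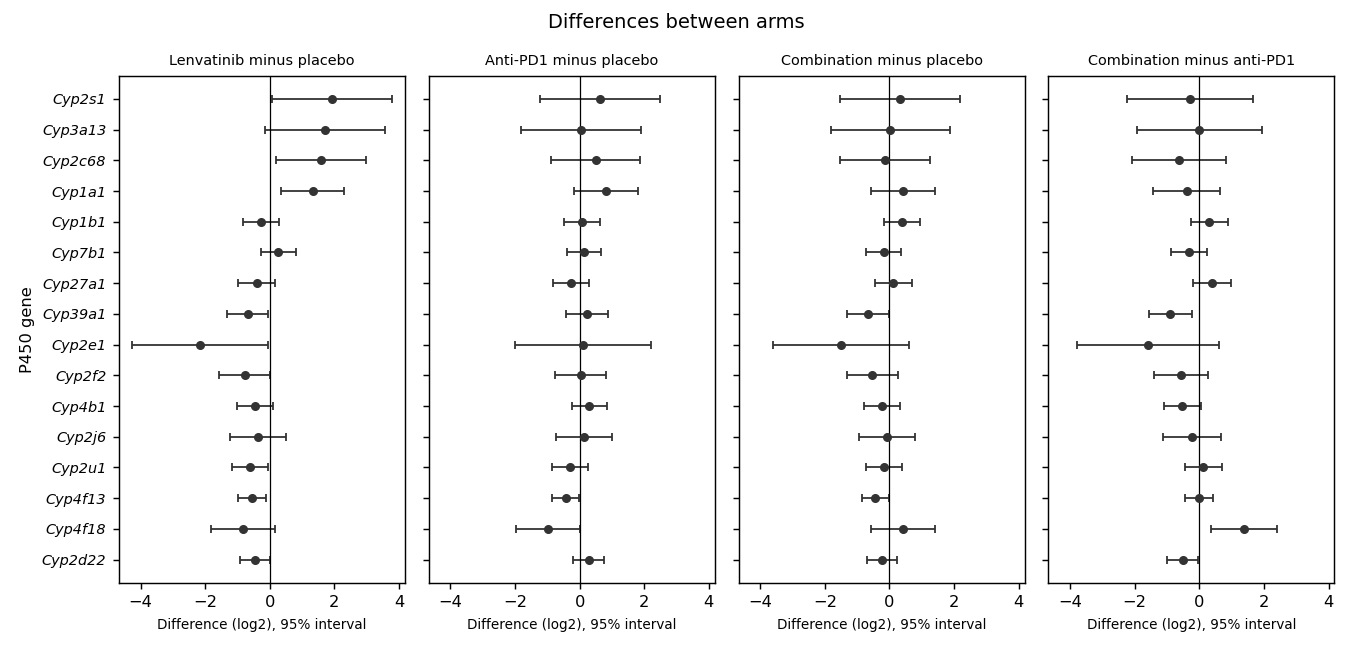
Log2 differences with 95% intervals for 16 P450 genes in 4 comparisons, from the fit over all 21 arrays. The intervals of Cyp1a1, Cyp2c68 and Cyp2s1 lie above 0 for lenvatinib minus placebo, and those of Cyp2e1, Cyp39a1, Cyp2u1 and Cyp4f13 below 0. For combination minus anti-PD1 that of Cyp4f18 lies above 0 and those of Cyp39a1 and Cyp2d22 below it. Also below 0 are Cyp4f13 for anti-PD1 minus placebo, and Cyp39a1 and Cyp4f13 for combination minus placebo. None passed the adjusted threshold.

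Genes that P450 enzymes work with were mostly above the bar, as were 76.7% of all tested probe sets. None of these genes passed an adjusted p of 0.05 in any comparison. Of the electron donors and haem genes, 8 of 8 measured were above the bar, and Hmox1 and Hmox2, the haem oxygenases, had the smallest F test p. Hmox1 had arm means of 8.13 in placebo, 7.82 in lenvatinib, 6.85 in anti-PD1 and 8.51 in combination, and Hmox2 differed by -0.68 ± 0.22 between lenvatinib and placebo. Cyb5a, the cytochrome b5 that passes electrons to some P450 enzymes, differed by -0.74 ± 0.29 there. Of the regulators 15 of 17 were above the bar. The exceptions were Nr1i2, which encodes PXR, with arm means of 3.15 to 3.30, and Nr1h4, which encodes the bile acid receptor FXR, at 3.06 to 3.19. Hnf4a had arm means of 5.25 in placebo, 6.61 in lenvatinib, 6.22 in anti-PD1 and 5.71 in combination, and its lenvatinib difference of 1.36 ± 0.67 did not pass. Among conjugation and transport genes 15 of 16 were above the bar, all but Gsta2. Gsta4, a glutathione transferase for lipid aldehydes, had arm means of 7.32, 6.07, 7.48 and 6.12 in the same order, and Aldh1a1, which makes retinoic acid, 6.12, 6.85, 6.82 and 5.75.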

How the data were processed

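Gene expression in 21 tumours was deposited as log2 signals. The authors made them with RMA and oligo (versions not named), per the submitters' processing notes. RMA aims to equalize the arrays' distributions, so levels are relative within these arrays. The interquartile range over the tested probe sets still differed between arrays, from 2.41 to 3.25. The build behind the probe sets is not given in the sources used here. Control rows (6923 of 29129) were set aside, leaving 22206 probe sets, of which 19572 had a gene symbol in the platform's annotation. Precision is set by the number of arrays, which carry no depth.

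Arms were compared with limma 3.58.1 in R 4.3.3 (lmFit and eBayes on 4 arm means over 21 arrays, two-sided, Benjamini-Hochberg adjusted p under 0.05 within a test over all probe sets). The mice are separate animals, placed by their treatment labels. Correlations used 100000 two-sided permutations. The P450 genes, role lists, tissue lists and alternatives were chosen with earlier results of these data known, and the neutrophil score was added after the data were seen. Named genes are, per comparison, up to 5 in each direction with the smallest p, the 10 highest signals, 3 on each side of the bar, the 5 largest SDs, 3 per tissue score and 2 per role; genes below the bar, and others called at an unadjusted p, were named after their values were seen. Promoter sequences are from RefSeq (GRCm38.p6). Paralogs of the Cyp2c, Cyp2d and Cyp3a clusters are similar, and the specificity of their probes was not tested. Listed names not matched to a named probe set, such as Por, Cyp2c29 and Cyp19a1, were not analysed here. The scripts were tested on simulated data. Alternatives were cyclic loess, 2 filters on dim probe sets, trend and robust eBayes, array weights, the 2 compared arms alone, the mouse number as a block, an adjusted p under 0.1, the hybridization controls as a covariate, leaving out arrays with bright controls, and leaving out each mouse in turn.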

Additional observations from a re-analysis of the deposited data

Results flagged for a closer look

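Among 32 of the named P450 genes in 4 arms, 128 groups in all, 11 held a tumour far from the others of its arm by Dixon's criterion, where chance gives about 1 in 20. Genes named only for lying near or below the bar, such as Cyp26a1 and Cyp7a1, were not among the 32. In combination mouse 1, on an array with bright hybridization controls, Cyp2c70 was high at 4.97 and Cyp2j6 low at 4.65. Lenvatinib mouse 1, also on such an array, was low for Cyp39a1 (5.18) and high for Cyp26b1 (5.27), and lenvatinib mouse 2 was low for Cyp2d13 (7.86). Anti-PD1 mouse 1, on another of these arrays, was low for Cyp1b1 (4.19), and placebo mouse 6 was high for Cyp4f17 (6.84). The part of the array difference in these values was not tested. On arrays without bright controls, Cyp1b1 was high in combination mouse 4 (5.95), Cyp4f18 high in placebo mouse 3 (7.88), Cyp26b1 low in placebo mouse 1 (4.58) and Cyp2d22 low in combination mouse 5 (5.17).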

How the results depend on the processing

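The count of P450 genes above the bar was 46 and was 4 at the 95th percentile of the negative controls. No P450 gene passed the adjusted threshold except under these settings: with array weights 1 in combination minus lenvatinib, 1 in combination minus anti-PD1 and 4 in the interaction (1.11%, 1.11% and 4.44% of 90, against 3.18%, 2.27% and 7.62% of all probe sets); without the arrays with bright controls 1 in combination minus anti-PD1 (against 1.05%). Leaving out 1 mouse gave 0 to 1 in combination minus anti-PD1 and in the interaction, with 1 reached without combination mouse 1 (against 1.52% and 1.44% of all probe sets), and 0 to 0 in the other tests.

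Counts at an unadjusted p under 0.05 moved as follows. Both filters on dim probe sets, which leave fewer P450 genes tested, gave 3 in the F test and 0 for anti-PD1 minus placebo. They gave 3 for combination minus lenvatinib and 4 for lenvatinib minus anti-PD1, and the 40th percentile filter gave 2 in the interaction. Of all probe sets, the 40th percentile filter held 7%, 5.01%, 7.62%, 5.21% and 11.8% in these tests, in this order. The negative-control median filter held 6.59%, 4.59%, 7.3% and 5.11% in the tests before the interaction. Array weights gave 1 for combination minus placebo, 8 for combination minus lenvatinib, 6 for combination minus anti-PD1, 5 for lenvatinib minus anti-PD1 and 8 in the interaction, against 5.6%, 21.1%, 16%, 3.14% and 23.7% of all probe sets. Without the arrays with bright controls the counts were 3 for lenvatinib minus placebo, 8 for combination minus lenvatinib, 5 for combination minus anti-PD1 and 4 for lenvatinib minus anti-PD1, against 4.95%, 12.4%, 14.6% and 2.57%. Trend and robust eBayes gave 1 for anti-PD1 minus placebo and 1 for combination minus placebo, against 3.97% and 2.33% of all probe sets. The 2 arms alone gave 1 for combination minus placebo (against 3.12%). The hybridization control covariate gave 4 for anti-PD1 minus placebo (against 6.35%). With 1 mouse left out the counts were 4 (lenvatinib mouse 2) to 10 (anti-PD1 mouse 5) in the F test, against 5.26% and 6.63% of all probe sets. They were 3 to 13 for lenvatinib minus placebo (against 3.71% and 8.15%). For anti-PD1 minus placebo they were 1 (placebo mouse 3) to 4 (lenvatinib mouse 1), against 3.73% and 4.35%. For combination minus placebo they were 0 (placebo mouse 1) to 4 (placebo mouse 5), against 2.1% and 2.54%. For combination minus lenvatinib they were 3 (lenvatinib mouse 1) to 8 (lenvatinib mouse 4), against 4.81% and 5.78%. For combination minus anti-PD1 they were 2 (anti-PD1 mouse 4) to 6 (anti-PD1 mouse 5), against 8.15% and 8%. For lenvatinib minus anti-PD1 they were 5 (lenvatinib mouse 2) to 11 (anti-PD1 mouse 3), against 3.36% and 7.28%. In the interaction they were 3 (placebo mouse 1) to 8 (lenvatinib mouse 5), against 7.89% and 10.6%.

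The mouse number as a block changed no adjusted call (0 in each test). It gave unadjusted counts of 1 for anti-PD1 minus placebo and 1 for combination minus placebo, against 3.88% and 2.44% of all probe sets. The numbers only name the mice: the median correlation of same-numbered mice was 0.10 (range -0.63 to 0.56), and 3 of 20 mice correlated best with their own number.

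P450 genes related to the adipocyte score numbered 16, and 9 after subtracting arm means, while the share of all probe sets went from 16.7% to 7.08%. For the macrophage score there were 2 (against 5.76% of all), and 4 without the 2 farthest tumours (11.7%), 1 after subtracting arm means (1.92%) and 1 within the 15 other arrays (5.88%). For the fibroblast score there were 9 (15.4%), and 3 (7.71%) and 5 (12.8%) under the last 2 of these settings. Without 1 mouse, 34 of 70 named differences moved by over 1.5 times. Of the 70, 4 changed sign in 8 of 2073 alternatives, and the cause was not tested. Combination minus placebo of Cyp1a1 was -0.0614 with array weights, -0.273 without the arrays with bright controls and -0.0747 (without combination mouse 1) to 0.777 with 1 mouse left out, and that of Cyp2a4 was -0.0627, -0.102 and -0.0961 (without combination mouse 1) to 0.259. Cyp27a1 in the same comparison was -0.0137 (without combination mouse 2) to 0.253 with 1 mouse left out, and Cyp2c66 in anti-PD1 minus placebo -0.00128 (without anti-PD1 mouse 1) to 0.286. Signals near the negative-control median limit the genes just above the bar.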
